A study of Gossypium hirsutum with 89 samples.

Results

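The developing fibre of the cotton genotype JKC 703 was followed over 5 days on 15 of the 89 Affymetrix Cotton Genome arrays of the series. The members are the arrays whose titles give JKC 703 and 6, 9, 12, 19 or 25 days post anthesis (dpa), with 3 replicates per day. JKC 703 is an upland cotton, Gossypium hirsutum, grown in the open field, and the labels class it as inferior in fibre traits, together with JKC 783 and JKC 737, while JKC 725 and JKC 777 are classed as superior. Flowers were tagged on the day they opened. Fibre alone was taken at these 5 days, and the whole ovules sampled at 0 dpa were left out. Total RNA was labelled as biotin cRNA. The design text calls the replicates biological, but the number of plants behind each is not given in the sources used here, so p-values measure the spread between these samples. For comparison, 15 fibre arrays of JKC 725, 14 of JKC 783, which has 2 at 25 dpa, and 15 of JKC 737 were used, from the same days and grown in the same way.

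A cotton fibre is a single cell that grows out of the outer epidermis of the seed. It first elongates with a thin primary wall, and expansins, xyloglucan-modifying enzymes, pectate lyases and enzymes for very long chain fatty acids are known for their part in this growth. Later the cell passes through a transition and lays down a thick secondary wall of almost pure cellulose, which is made by cellulose synthase complexes with sucrose synthase as a known source of their sugar nucleotide. Fasciclin-like arabinogalactan proteins (FLA) are glycoproteins of the cell surface and wall, and certain NAC factors are known from Arabidopsis as switches for secondary wall formation.

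All values are MAS5 signals, 1 per probe set and array. Changes compare a probe set with itself across days, levels of single probe sets are not set against each other, and a suffix of x_at or s_at marks those that may bind several gene copies. Changes are differences of log2(signal + 4.38), the later day minus the earlier, with the standard error (SE) of limma and 3 arrays per day unless stated. The added 4.38 makes the change of dim genes look smaller than it is. Of 24029 probe sets without controls, 17283 reached a mean signal of 40.4 on at least 1 of the 5 days and were tested, and 293 of these, of 232 genes, had a readable name. A change was called at an adjusted p under 0.05 and a size of at least 1. In bulk fibre, fewer cells of a type and less RNA per cell cannot be told apart.

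Arrays of 1 day correlated with each other at a mean r of 0.979 at 6 dpa, 0.981 at 9 dpa, 0.979 at 12 dpa, 0.959 at 19 dpa and 0.977 at 25 dpa, over log2 values of all probe sets. Between neighbouring days the mean r was 0.971 for 9 and 6 dpa, 0.956 for 12 and 9 dpa, 0.907 for 19 and 12 dpa and 0.957 for 25 and 19 dpa, and it was 0.839 for 25 and 6 dpa. The first principal component held 70.2% of the variance and ran with the days, and the second held 9.53%. Replicate 3 at 19 dpa stood apart. It had the highest median signal, 119.8 in a range of 78.43 to 119.8, and lay at 130.6 on the first and -33.26 on the second component, where the other arrays of that day lay at 95.78 and 81.59 on the first and at -1.076 and 1.262 on the second. At 12 dpa, replicate 3 lay nearest to 9 dpa.

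**Figure D1:**
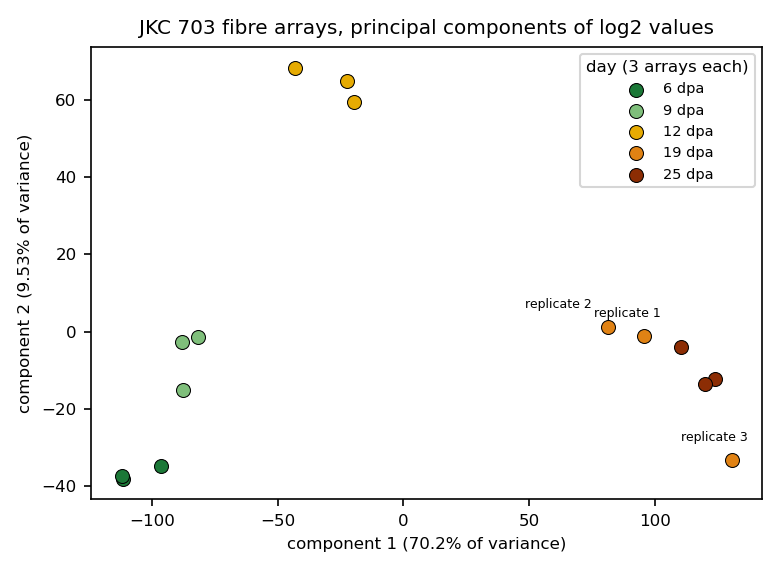
First 2 principal components of the 15 JKC 703 fibre arrays, 1 point per array coloured by day, with the share of variance on each axis and replicate numbers beside the 19 dpa points. The days run along the first component, with a wide gap between the 12 and 19 dpa arrays, and replicate 3 of 19 dpa lies below the other 19 and 25 dpa arrays on the second component.

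The course was not even. The step with the most called probe sets was 19 against 12 dpa, with 5277, or 30.5% of those tested, 3405 higher and 1872 lower. Before it, 572 (3.31%) were called at 9 against 6 dpa, 439 higher and 133 lower, and 1736 (10%) at 12 against 9 dpa, 696 higher and 1040 lower. After it, 1008 (5.83%) were called at 25 against 19 dpa, 222 higher and 786 lower. Between the ends of the course, 25 against 6 dpa, 7103 (41.1%) were called, 3688 higher and 3415 lower. In these 5 comparisons the called probe sets whose 3 later arrays did not overlap the 3 earlier ones numbered 563, 1721, 5007, 931 and 6968. Differences among the 5 days were found in 9831 probe sets, 56.9%, by limma's F test with a range of at least 1.

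The balance of higher and lower calls depended on the scaling of the arrays, more than the totals did. The higher share was 40.1% at 12 against 9 dpa on the deposited scale, 50.2% with quantile normalization and 59.4% with each array centred on its median. At 19 against 12 dpa it was 64.5%, 50.4% and 57.4%. At 25 against 19 dpa it was 22%, 45% and 46.8%, and at 25 against 6 dpa 51.9%, 52.9% and 65.7%. Median centring moved the median of all changes tested to 0.148 at 12 against 9 dpa, where it was -0.0696 on the deposited scale, and to 0.372 at 25 against 6 dpa, where it was 0.0766. The other medians on the deposited scale were 0.0107 at 9 against 6 dpa, 0.204 at 19 against 12 dpa and -0.126 at 25 against 19 dpa. The changes of named genes described below are mostly far larger than these shifts.

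**Figure D2:**
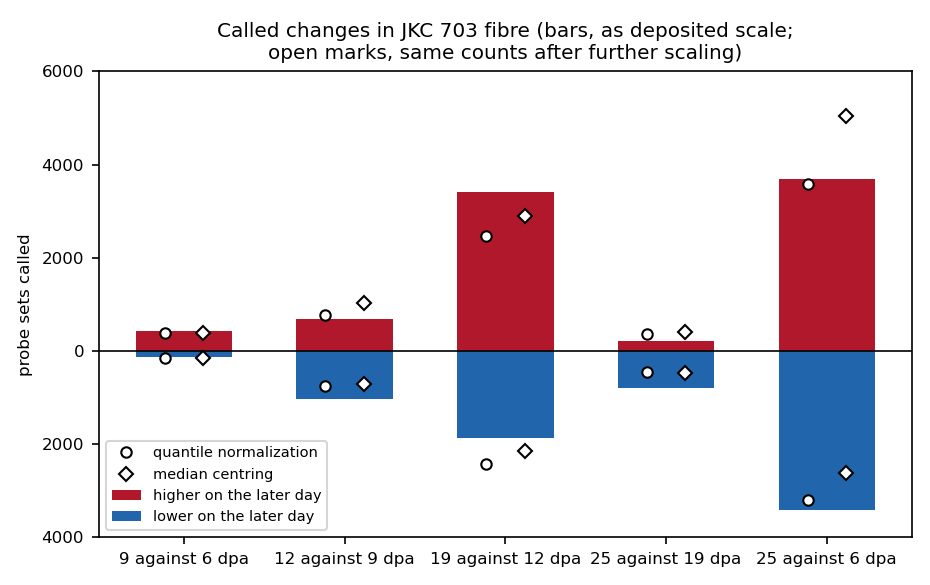
Number of probe sets called higher (bars up) and lower (bars down) in each comparison of JKC 703 fibre days, of 17283 tested. Circles give the numbers after quantile normalization and diamonds after median centring. The step from 12 to 19 dpa has 3405 calls higher and 1872 lower, the most of the 4 steps.

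From 6 to 9 dpa, FLA6, XTH3, nst3 and susC rose and few named genes fell. Called higher were 2 of 7 probe sets of cellulose synthesis and sucrose supply, 4 of 16 FLA probe sets and 1 of 6 wall matrix probe sets, beside 2.54% of all tested. FLA6 had signals of 840, 1025 and 1921 at 9 dpa, against 20.4, 22.1 and 21.45 at 6 dpa on the first of its 2 probe sets. Every 9 dpa array was far above every 6 dpa array, and the 6 dpa signals lay in the dimmest 40% of the table. The change was 5.53 ± 0.21 on the log2 scale (limma, adjusted p = 9.16e-10). The second FLA6 probe set rose by 5.47 ± 0.34.

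XTH3, a xyloglucan endotransglucosylase/hydrolase, which cuts and rejoins xyloglucan chains, had 404, 345 and 615 at 9 dpa, against 22.8, 36.2 and 56.3 at 6 dpa, without overlap. It rose by 3.46 ± 0.43 (adjusted p = 0.00014). The NAC factor nst3 had 262, 292 and 294.5 at 9 dpa, against 32.7, 27.8 and 39.2 at 6 dpa on the first of its 3 probe sets. It rose on all 3, by 2.94 ± 0.15 on the first, by 3.15 ± 0.21 on the second and by 2.18 ± 0.39 on the last. The sucrose synthase susC had 1461, 1870 and 1848 at 9 dpa, against 308, 385 and 438 at 6 dpa, and rose by 2.19 ± 0.16 (adjusted p = 1.14e-06). Its arrays of each day lay close together. The probe sets of susC and EXPA1 carry the same cluster number in their identifiers, and which transcripts each binds was not tested.

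Aux6 rose by 1.96 ± 0.30, the ACC oxidase ACO1 (LOC107954048), which makes ethylene, by 1.89 ± 0.33, POX5 by 1.68 ± 0.26 and the chalcone synthase CHS3, the entry to flavonoid synthesis, by 1.67 ± 0.21. When all 30 groups of the series shared 1 spread, the adjusted p was 0.0697 for ACO1 and 0.131 for POX5, so both calls ended. The transcription factor RAV1 was also called higher, by 1.66, but lost its call under 11 alternative settings. Among expansins, which loosen the wall, EXPA3D rose by 1.21 ± 0.16 (adjusted p = 0.00033) on the first of its 2 probe sets, and the other 6 expansin probe sets were not called. CelA1, a catalytic subunit of cellulose synthase, was still dim but already higher on the first of its 2 probe sets, with 124, 115 and 148.5 at 9 dpa, against 63.05, 55.3 and 54.1 at 6 dpa, a rise of 1.11 ± 0.17.

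Named genes called lower were 4. CPA-FAS-2, a cyclopropane fatty acid synthase, had 14.7, 13.4 and 8.34 at 9 dpa, against 60.0, 58.3 and 50.7 at 6 dpa, and fell by 1.90 on the log2 scale. The 9 dpa signals lay below the 40.4 limit. The lipid transfer protein LTP3 had 1474, 1969 and 1480 at 9 dpa, against 3399, 3143 and 4473 at 6 dpa on the first of its 2 probe sets. It fell by 1.16, without overlap. The R2R3 MYB factor myb109 had 348, 357 and 237 at 9 dpa, against 664, 822 and 957 at 6 dpa, and fell by 1.37 (adjusted p = 0.0323), a call that was lost when any of the 6 arrays was left out. GAE2 fell by 1.00 and sat at the limit of the size rule.

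From 9 to 12 dpa, CelA1, CTL1 and FLA6 rose steeply, while cdn1-C4, Aux3 and GID1-4 fell. Beside 4.03% of all tested probe sets called higher and 6.02% called lower, 3 of 7 probe sets of cellulose synthesis and sucrose supply were higher and 0 lower. Of 16 hormone probe sets 4 were lower and 12 were not called. Of the 7 phenylpropanoid, flavonoid and terpenoid probe sets 3 were lower, 3 were not called and 1, CHS3, rose by 1.12 ± 0.21. CelA1 had 7181, 6992 and 4109 at 12 dpa, against 124, 115 and 148.5 at 9 dpa on its first probe set. Replicate 3 was the lowest of the 12 dpa arrays and still lay far above every 9 dpa array. The rise was 5.48 ± 0.17, or 44.5-fold (adjusted p = 6.99e-11). CTL1, a chitinase-like protein, had 4887, 4941 and 2519 at 12 dpa, against 178, 140 and 187 at 9 dpa. Its replicate 3 was again the low one, and it rose by 4.52 ± 0.23 (adjusted p = 5.24e-09). FLA6 reached 12160, 11150 and 10530 at 12 dpa, against 388, 588 and 1326 at 9 dpa on its second probe set, a rise of 4.06 ± 0.34. The 9 dpa arrays of FLA6 were spread widely, with replicate 3 the highest, and those of 12 dpa lay close together.

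FLA7 had 298, 203 and 381 at 12 dpa, against 6.55, 4.91 and 41.8 at 9 dpa, and rose by 4.11 ± 0.50 (adjusted p = 4.18e-05). Only replicate 3 of the 9 dpa arrays was above the dimmest 40% of the table. The sucrose synthase susC had 6814, 6818 and 7370 at 12 dpa, against 1461, 1870 and 1848 at 9 dpa, and rose by 2.02 ± 0.16. Its 12 dpa level was the highest of its course. CBP2 rose by 2.82 and PAP10 by 1.98. AOX1, an alternative oxidase, was called higher by 1.22, but 5 of the 6 settings that left out an array ended its call, as did the replicate block (adjusted p = 0.0505) and an offset of 32, where it was 0.73.

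The largest fall was that of cdn1-C4, a delta-cadinene synthase, which begins the path to gossypol. It had 226, 239.5 and 232 at 12 dpa, against 3290, 2389 and 1458 at 9 dpa, and fell by 3.25 on the log2 scale (SE 0.50, adjusted p = 0.000329). The 12 dpa arrays were nearly equal and those of 9 dpa were not. Aux3 had 339, 256 and 471 at 12 dpa, against 1773, 1921 and 1606 at 9 dpa, and fell by 2.34. GID1-4, a gibberellin receptor, had 67.3, 42.4 and 66.5 at 12 dpa, against 333, 212 and 254 at 9 dpa, and fell by 2.10. DET2, an enzyme of brassinosteroid synthesis, had 421, 413 and 408 at 12 dpa, against 736, 968 and 884 at 9 dpa, and fell by 1.04. These genes did not overlap between the days.

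GHMYB36 fell by 1.96 but lost its call without replicate 1 of 9 dpa or of 12 dpa. LTP3 fell further, by 1.78, with 438, 488 and 485 at 12 dpa, against 1474, 1969 and 1480 at 9 dpa. The MYB factor GHMYB10 fell by 2.29, RAV1 by 1.95, bnlghi6863 by 2.17, the xyloglucan enzyme XTH by 1.75 and a peroxidase by 1.55. The dihydroflavonol reductase DFR, of the anthocyanin path, fell by 1.05. The pectate lyase Pel, which cleaves pectin, had 2120, 2198 and 2823 at 12 dpa, against 4668, 4637 and 4922 at 9 dpa, and fell by 1.00 (adjusted p = 0.0107).

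**Figure D3:**
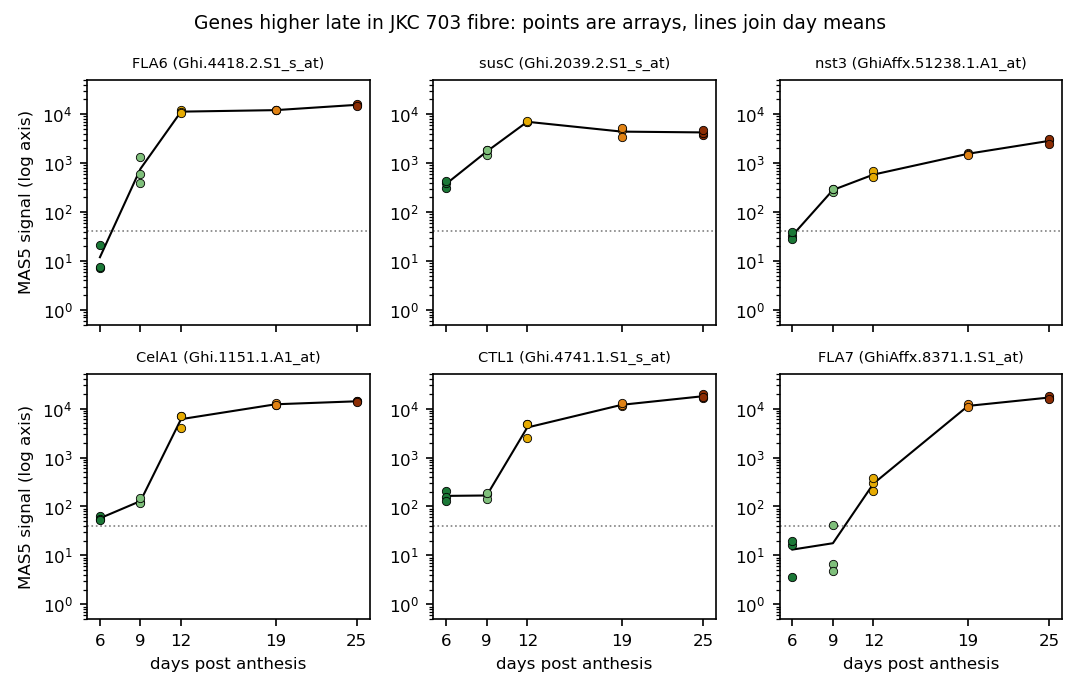
MAS5 signal on a log axis against days post anthesis for FLA6, susC, nst3, CelA1, CTL1 and FLA7, 1 point per JKC 703 array with a line through the day means. The dotted line marks 40.4, the signal a day mean had to reach. FLA6, susC and nst3 climb by 9 dpa, CelA1 and CTL1 between 9 and 12 dpa, and FLA7 reaches 10580 to 12360 by 19 dpa.

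At 19 against 12 dpa, Pel, KCS38, KCS12, EXPA3D and EXPA1 fell, while FLA7, GLU, FLA15 and NAC4 rose. FLA7 had 11210, 12360 and 10580 at 19 dpa, against 298, 203 and 381 at 12 dpa, and rose by 5.30 ± 0.50 (adjusted p = 9.83e-07). GLU had 11330, 10940 and 10500 at 19 dpa, against 352, 487 and 208.5 at 12 dpa, and rose by 5.03 ± 0.33, or 32.7-fold. The arrays of each day were far apart from those of the other for both. FLA15 had 5858, 6969 and 2963 at 19 dpa, against 388, 432 and 899 at 12 dpa, and rose by 3.21 ± 0.35, with replicate 3 the nearest to the other day on both sides.

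CelA1 and CTL1 went on rising on a smaller scale, CelA1 by 1.05 ± 0.17 to 11710, 13170 and 11950 at 19 dpa, and CTL1 by 1.60 ± 0.23 to 11070, 11970 and 12910. The second CelA1 probe set went the other way. It had 1974, 646 and 221 at 19 dpa, against 3355, 3953 and 3740 at 12 dpa, and fell by 2.47 (SE 0.51, adjusted p = 0.00102). Its 19 dpa arrays were far apart from each other, and all lay below those of 12 dpa. Probe sets of 1 name therefore did not move alike. FLA6 stayed near its 12 dpa level, with a change of 0.10 ± 0.34, and susC, with a change of -0.69 ± 0.16, was not called.

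S-adenosylmethionine synthetase SAMS had 11530, 10770 and 11160 at 19 dpa, against 2478, 2232 and 2443 at 12 dpa, a rise of 2.22 ± 0.15 (adjusted p = 3.8e-08). Caffeoyl-CoA O-methyltransferase CCoAMOT2, which methylates monolignol precursors, had 1238, 1362 and 718 at 19 dpa, against 181, 346 and 181 at 12 dpa, and rose by 2.22 ± 0.30. KCH1, a kinesin, rose by 2.64 ± 0.44, the peroxidase pod10 by 3.37 ± 0.51, FLA2 by 2.31, KT by 2.79, AT1 by 1.86 and CBL1, a calcineurin B-like calcium sensor, by 1.86. For each of these genes the arrays of the 2 days did not overlap.

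Among transcription factors, NAC4 had 1526, 228 and 2967 at 19 dpa, against 135, 131 and 54.9 at 12 dpa, and rose by 3.30 ± 0.75 (adjusted p = 0.00209). The 19 dpa arrays were spread widely, with replicate 2 low and replicate 3 high, and every one lay above those of 12 dpa. WRKY15 had 891, 267 and 1748 at 19 dpa, against 193, 224 and 154 at 12 dpa on 1 probe set, a rise of 1.97 ± 0.44, and its second probe set rose by 2.48 ± 0.62. NAC5 had 878, 398 and 1709 at 19 dpa, against 163, 136 and 146 at 12 dpa, and rose by 2.48 ± 0.45. The factor named MYB had 585, 133.5 and 1056 at 19 dpa, against 115, 109 and 73.65 at 12 dpa, and rose by 2.12 ± 0.51. In all 4, replicate 2 was lowest and replicate 3 highest. For SusA1 replicate 3 was again the highest, with 126, 232 and 1035 at 19 dpa, against 70.8, 84.2 and 29.3 at 12 dpa on the first of its 2 probe sets, a rise of 2.39 ± 0.59. GEPH had 427, 25.0 and 519 at 19 dpa, against 3.36, 15.8 and 20.1 at 12 dpa, a rise of 3.59. The factor nst3 rose by 1.42 ± 0.15 on its first probe set and by 2.0 ± 0.39 on its last, with a change of 0.09 ± 0.21 on the second. Aux4 rose by 1.74 and the factor Di19-1 by 1.70.

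The falls at this step were larger and tighter. KCS38, a 3-ketoacyl-CoA synthase, which extends very long chain fatty acids, had 108, 169 and 77.4 at 19 dpa, against 7397, 6667 and 8678 at 12 dpa on the first of its 4 probe sets. It fell by 6.01 on the log2 scale, 64.7-fold (SE 0.24, adjusted p = 1.82e-10). KCS12, of the same family, had 576, 478 and 316 at 19 dpa, against 7689, 7292 and 6586 at 12 dpa, and fell by 4.003. KCS45 fell by 2.54. For KCS38 and KCS12 no 19 dpa array came near the 12 dpa level.

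Pel had 51.5, 35.9 and 29.7 at 19 dpa, against 2120, 2198 and 2823 at 12 dpa, and fell by 5.80 on the log2 scale (SE 0.25, adjusted p = 4.1e-10). EXPA3D had 33.8, 48.9 and 51.1 at 19 dpa, against 2623, 2415 and 2896 at 12 dpa, and fell by 5.77. EXPA11A had 41.8, 43.1 and 17.7 at 19 dpa, against 1398, 1112 and 1645 at 12 dpa, and fell by 5.23. All 3 lay near the 40.4 limit at 19 dpa. EXPA4 fell by 4.98 on the first of its 3 probe sets. EXPA1 had 1224, 1761 and 1119 at 19 dpa, against 11970, 11230 and 10870 at 12 dpa, and fell by 3.08 while staying well above the limit.

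The factor myb109 had 4.19, 10.6 and 2.06 at 19 dpa, against 237, 225.5 and 586 at 12 dpa, and fell by 5.09 (adjusted p = 6.4e-08). Its 19 dpa signals lay in the dimmest part of the table. Aux6 had 147, 153 and 60.9 at 19 dpa, against 2579, 2522 and 3265 at 12 dpa, and fell by 4.58. The glutathione S-transferase GST (LOC107948407) fell by 4.14, the peroxidase pox by 4.25, FLA19 by 3.67, FLA14 by 3.41 on 1 of its 2 tested probe sets and cdn1-C4 by 3.42. The acyl-CoA-binding protein ACBP fell by 2.71, PGIPL by 2.70, CMDR1 by 4.73 and Ssh2 by 4.32. The cinnamoyl-CoA reductase CCR1, of the monolignol path, had 946.5, 945.5 and 262 at 19 dpa, against 3451, 3664 and 4362 at 12 dpa, and fell by 2.62. Replicate 3 of 19 dpa was the lowest array for Pel, EXPA11A, KCS38, KCS12, myb109, Aux6 and CCR1.

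Without replicate 3 of 19 dpa, 4189 probe sets were called at 19 against 12 dpa. The 20 rising and 20 falling genes named for this step kept their calls without it, and only the calls of NAC5, when all 30 groups of the series shared 1 spread, and of Aux4, with 32 added to the signals, were lost under other settings.

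**Figure D4:**
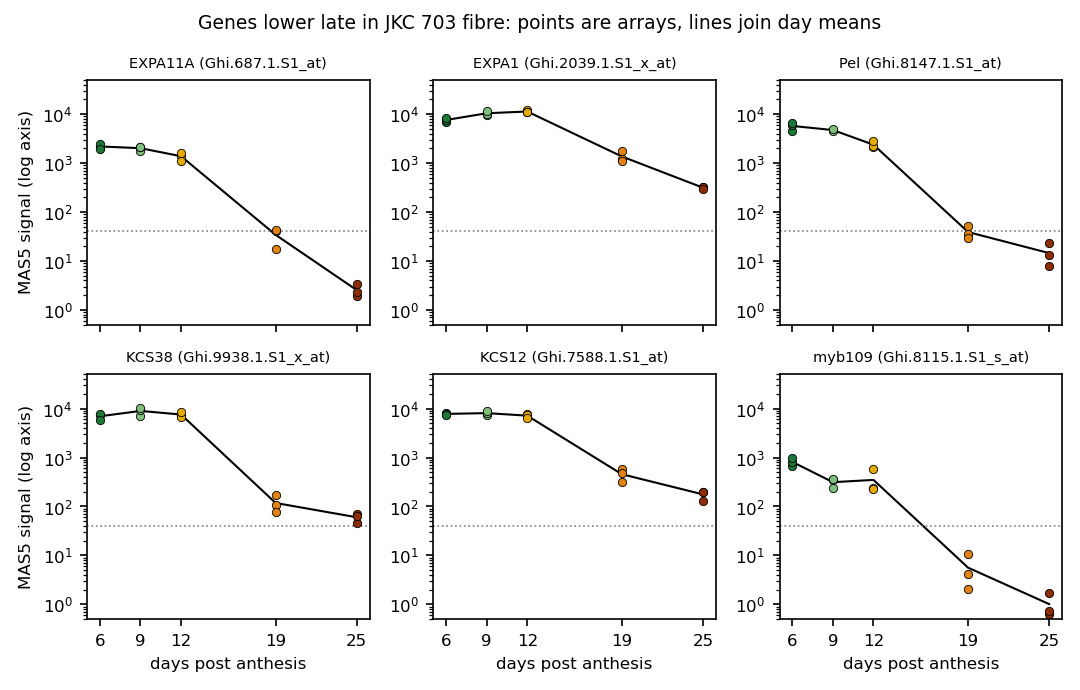
MAS5 signal on a log axis against days post anthesis for EXPA11A, EXPA1, Pel, KCS38 on its first probe set, KCS12 and myb109, 1 point per JKC 703 array with a line through the day means and the dotted line at 40.4. All 6 drop between 12 and 19 dpa, and EXPA1, KCS12 and KCS38 stay above the line at 25 dpa.

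At 25 against 19 dpa few named genes rose. MatP7 had 228, 214 and 585 at 25 dpa, against 26.1, 34.9 and 15.2 at 19 dpa, and rose by 3.44 ± 0.45 (adjusted p = 0.000231). Its 19 dpa signals were below the 40.4 limit. The legumin LEGB, a seed storage protein, had 28.0, 15.2 and 115 at 25 dpa, against 0.717, 7.38 and 0.519 at 19 dpa on the first of its 2 probe sets, and rose by 2.67 ± 0.58. Replicate 3 was the highest, and the second LEGB probe set was not called at this step and fell by 1.89 at 25 against 6 dpa. TPS1 rose by 2.87 and RCA1 by 1.77, the second losing its call without replicate 1 or replicate 2 of 25 dpa. EXPA3D rose by 1.29 ± 0.16, with 94.3, 120 and 130 at 25 dpa, against 33.8, 48.9 and 51.1 at 19 dpa, which is far below its 12 dpa level. The aquaporin NIP6.1 rose by 1.21 and FLA15 by 1.14 ± 0.35, with 10960, 11360 and 10430 at 25 dpa, against 5858, 6969 and 2963 at 19 dpa. Without replicate 3 of 19 dpa the adjusted p was 0.0671 for NIP6.1 and 0.122 for FLA15, so both calls ended. The call of FLA15 also ended with quantile normalization, with no intensity trend and without any of the 25 dpa arrays. That of NIP6.1 also ended without replicate 1 or replicate 3 of 25 dpa and when all 30 groups of the series shared 1 spread.

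Among falls, CCoAMOT2 returned to 126, 122 and 131 at 25 dpa, against 1238, 1362 and 718 at 19 dpa, and fell by 3.03 (adjusted p = 2.09e-05). Its level was highest at 19 dpa. EXPA11A had 1.93, 3.40 and 2.30 at 25 dpa, against 41.8, 43.1 and 17.7 at 19 dpa, and fell by 2.40. EXPA1 had 318, 326 and 300.5 at 25 dpa, against 1224, 1761 and 1119 at 19 dpa, and fell by 2.08 (adjusted p = 6.88e-07). These falls continued those of the step before. KCS45 fell by 1.96, KCS38 by 1.84 on its second probe set, EXPA4 by 1.80, the cyclic nucleotide-gated channel CNGC2 by 1.72, Ssh2 by 1.71, the peroxidase pod5 by 1.67 and grlk5 by 1.56. With 32 added to the signals, 649 probe sets were called at this step and the calls of EXPA3D, EXPA11A, EXPA4, pod5 and NIP6.1 were lost.

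Over the whole course, 25 against 6 dpa, the named genes that rose most were FLA7 by 10.06 ± 0.50 and FLA6 by 9.99 ± 0.34. FLA7 had 16650, 17970 and 15970 at 25 dpa, against 3.58, 16.3 and 19.6 at 6 dpa, and FLA6 had 15620, 16170 and 14810 at 25 dpa, against 7.26, 7.59 and 20.97 at 6 dpa on its second probe set. Both lay in the dimmest part of the table on every 6 dpa array. CelA1 had 14020, 14600 and 13770 at 25 dpa, against 63.05, 55.3 and 54.1 at 6 dpa, and rose by 7.84 ± 0.17, or 229-fold (adjusted p = 8.35e-14). CTL1 had 16580, 19550 and 17670 at 25 dpa, against 210, 155 and 129.5 at 6 dpa, and rose by 6.75 ± 0.23. The NAC factor nst3 had 2932, 3138 and 2481 at 25 dpa, against 32.7, 27.8 and 39.2 at 6 dpa, and rose by 6.25 ± 0.15. Its 6 dpa signals lay below the 40.4 limit. For these 3 genes every 25 dpa array lay far above every 6 dpa array.

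GLU rose by 5.30 ± 0.33, pod10 by 5.04, NAC4 by 4.72, NAC2 by 4.0, KT by 4.004, Rac9 by 3.76, FLA15 by 3.64, SAMS by 3.52, susC by 3.49 ± 0.16, MatP7 by 3.43, PAP10 by 3.39, Pat1 by 3.38, the factor MYB by 3.004 and LEGB by 2.97. The factor WRKY71 had 338, 464 and 60.8 at 25 dpa, against 0.878, 15.9 and 11.4 at 6 dpa, and rose by 4.20 ± 0.85, the widest error among the 20 rising genes, with every 6 dpa signal below the limit.

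The deepest falls were those of Pel and EXPA11A, both by 8.31 on the log2 scale. Pel had 22.8, 13.0 and 7.72 at 25 dpa, against 4504, 6089 and 6661 at 6 dpa, and EXPA11A had 1.93, 3.40 and 2.30 at 25 dpa, against 2142, 2463 and 1973 at 6 dpa. Both were bright on every 6 dpa array and below the limit on every 25 dpa array. The synthase cdn1-C4 had 11.6, 17.2 and 8.86 at 25 dpa, against 2917, 3721 and 4630 at 6 dpa, and fell by 7.80. The factor myb109 fell by 7.23, EXPA4 by 7.03 and EXPA3D by 6.79 on its second probe set. KCS38 fell by 6.76 on its first probe set, CMDR1 by 6.61, Ssh2 by 5.68, KCS12 by 5.45, GST (LOC107948407) by 5.33 and KCS45 by 5.06. Falls between 4 and 5 on the log2 scale were those of GHMYB10, FLA11, PGIPL, LTP3, EXPA1, FLA13, pox and Aux6.

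The gene lists, which hold every probe set with a listed readable name, did not move alike, and several held members that went both ways. Beside the 21.3% of tested probe sets called higher and the 19.8% called lower at 25 against 6 dpa, all 7 expansin probe sets, of 4 genes, were called lower, with a median change of -4.65, where all tested probe sets had 0.0766. At the step to 19 dpa, 6 of the 7 fell, against 10.8% called lower in all. The 7 probe sets of cellulose synthesis and sucrose supply gave 4 higher and 1 lower between the ends of the course, with a median of 2.36. The 2 that were not called were SusA1 on its second probe set, at 0.24, and the sucrose synthase Sus1, which had 6155, 5705 and 5652 at 25 dpa, against 8942, 10290 and 9225 at 6 dpa, a change of -0.70 ± 0.15. With quantile normalization Sus1 changed by -1.151 and was called.

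The FLA genes went both ways. Of 19 probe sets 16 were tested, and 6 were higher and 9 lower at 25 against 6 dpa. The higher ones were FLA6 and FLA7, described above, FLA15, FLA2 and FLA4, and the lower ones were those of FLA11, FLA12, FLA13, FLA18, FLA19 and 1 of FLA14. FLA4 had 16430, 17520 and 16460 at 25 dpa, against 7819, 8418 and 7850 at 6 dpa. Its arrays did not overlap, and its rise of 1.07 ± 0.10 lost its call with quantile normalization, where it was 0.43. FLA11 had 64.4, 63.2 and 62.4 at 25 dpa, against 1815, 1746 and 1572 at 6 dpa, and fell by 4.66. At 19 dpa its arrays were spread widely, at 374, 877 and 49.3. The FLA counts at the single steps were 4 higher and 0 lower at 9 against 6 dpa (2.54% and 0.770% in all), 3 and 1 at 12 against 9 dpa (4.03% and 6.02%), 3 and 8 at 19 against 12 dpa (19.7% and 10.8%) and 1 and 0 at 25 against 19 dpa (1.28% and 4.55%). Without replicate 3 of 19 dpa the last 2 were 3 and 6, and 1 and 3.

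Of the 14 probe sets for very long chain fatty acids and lipid transfer, 9 fell and 1 rose at 25 against 6 dpa, with a median of -1.4. The 1 that rose was FAD78-1A, a fatty acid desaturase, with 1930, 1642 and 1846 at 25 dpa, against 309, 281 and 265 at 6 dpa, a rise of 2.64 ± 0.20. The KCS38 probe sets were split, since the first and second fell and the other 2 had changes of 0.44 and 0.06. CPA-FAS-1 had 114, 30.35 and 377 at 19 dpa, against 30.4, 32.65 and 16.4 at 12 dpa, where the arrays overlapped, and was called higher by 1.96 ± 0.58. LTP3 was split as well, since its second probe set had 11680, 12240 and 10840 at 25 dpa, against 8493, 9265 and 7856 at 6 dpa, a change of 0.44 that was below 0 with quantile normalization.

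Of the 35 tested probe sets of transcription factors, 16 rose and 5 fell at 25 against 6 dpa, with a median of 0.877. The step to 19 dpa held 14 of them higher and 4 lower, beside 19.7% and 10.8% of all, and the step to 25 dpa held 0 higher and 1 lower, beside 1.28% and 4.55%. Besides nst3, NAC2, NAC4, WRKY15, WRKY71 and MYB, those higher at the end of the course included MYB6, with 980, 1029 and 1190 at 25 dpa, against 358, 468 and 298 at 6 dpa, a rise of 1.52 ± 0.21. The homeodomain factor HB4 rose by 1.45 ± 0.20. The MADS-box factors MADS-1, MADS-2 and MADS-3 were bright on every day and not called in any of the 5 comparisons, and the change of MADS-1 at 25 against 6 dpa, 0.36, was below 0 with quantile normalization. MYB1 rose at 9 against 6 dpa alone among the 5 comparisons, by 1.17 ± 0.20, and GHMYB38 fell by 3.31 over the course on 1 of its probe sets.

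Of 20 tested cytoskeleton probe sets, 5 rose and 1 fell at 25 against 6 dpa, where 21.3% of all tested were higher, a share near that of the list, and 19.8% lower. The kinesin KIS13A1 had 6453, 6553 and 6734 at 25 dpa, against 2484, 2481 and 2751 at 6 dpa, and rose by 1.35 ± 0.08. The beta-tubulin BTub3 had 16150, 15430 and 14060 at 25 dpa, against 5615, 7414 and 7019 at 6 dpa, and rose by 1.19 ± 0.14. The other 3 were KCH1, Rac9 and Rac13. Anx1, an annexin, which binds membranes with calcium, had 2858, 2860 and 2557 at 25 dpa, against 6356, 7372 and 8078 at 6 dpa, and fell by 1.39. The tested actin probe sets, of ACT1, ACT4, ACT7 and ACT11, were bright on every day and were not called, and the change of ACT1, 0.24 on the deposited scale, was below 0 with quantile normalization.

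Of 16 tested hormone probe sets, 3 rose and 5 fell at 25 against 6 dpa, beside 21.3% and 19.8% of all. The ACC oxidase ACO1 (LOC107905899) had 9204, 9599 and 9086 at 25 dpa, against 1773, 2083 and 3591 at 6 dpa, and rose by 1.97 ± 0.35. DET2 had 249, 294 and 304 at 25 dpa, against 1364, 1421 and 1854 at 6 dpa, and fell by 2.43 (SE 0.16). The ACC synthase ACS3 fell by 1.62, GID1-4 by 2.96 and Aux3 by 2.83. At 19 against 12 dpa, 4 hormone probe sets were higher and 2 lower, near the 19.7% and 10.8% of all, and without replicate 3 of 19 dpa 1 was higher and 2 were lower.

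Of 20 tested redox probe sets, 5 rose and 6 fell at 25 against 6 dpa, beside 21.3% and 19.8% of all, and the higher share is near that of all. POX9 had 204, 196 and 176 at 25 dpa, against 2896, 2592 and 3212 at 6 dpa, and fell by 3.88 (SE 0.27). A peroxidase named only as such fell by 3.88 as well, and the stromal ascorbate peroxidase sAPX by 1.44. The catalase CAT2 rose by 1.34 ± 0.26, and pod7 by 2.92 ± 0.73. At the step to 19 dpa, 4 were higher, about the 19.7% of all, and 6 lower, beside 10.8%, and without replicate 3 of that day 1 was higher and 6 lower. Of the 7 phenylpropanoid, flavonoid and terpenoid probe sets, 6 fell and 1, CHS3, rose. CHS3 had 2005, 1750 and 1594 at 25 dpa, against 398, 520 and 623 at 6 dpa, and was highest at 12 dpa, with 3480, 3411 and 3678. DFR had 953, 903 and 988 at 25 dpa, against 7230, 7870 and 6437 at 6 dpa, and fell by 2.91.

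The wall matrix list had 2 higher and 2 lower of 6 tested. XTH3 and GLU rose, and Pel and XTH fell, XTH with 400, 349 and 201.5 at 25 dpa, against 3387, 3507 and 2862 at 6 dpa. XTH1 was bright throughout and was not called. The 4 turgor and transport probe sets stayed under the size rule at 25 against 6 dpa, with changes of 0.52 for DET3 and 0.45 and -0.13 for VATE, subunits of the vacuolar proton pump, and -0.92 for the carboxylase PEPC1. The first of the 2 VATE values was below 0 with quantile normalization. Of the 17 probe sets of ubiquitous genes, 16 were not called, and their median change was 0.0485. The ribosomal protein RPS16 fell by 1.12, a call that ended with median centring.

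By the day of the highest mean, the 9831 probe sets that differed among the days had 2445 highest at 6 dpa, 1220 at 9 dpa, 933 at 12 dpa, 3005 at 19 dpa and 2228 at 25 dpa. By the day of the lowest mean, 2916 were lowest at 6 dpa, 1332 at 9 dpa, 1476 at 12 dpa, 1087 at 19 dpa and 3020 at 25 dpa. The named genes with the widest range among those highest in the middle of elongation were KCS38 with 7.12, Aux6 with 6.02, EXPA3D with 5.79 and KCS12 with 5.50 on the log2 scale, all highest at 9 dpa, and Ssh2 with 6.03, highest at 12 dpa. Aux6 had 694, 651 and 833 at 6 dpa, 2768, 2724 and 3010 at 9 dpa, 2579, 2522 and 3265 at 12 dpa, 147, 153 and 60.9 at 19 dpa and 24.9, 53.7 and 44.5 at 25 dpa. Its 9 and 12 dpa arrays overlapped and stood above all others. KCS12 was bright on all arrays of the first 3 days, and its 9 dpa arrays overlapped those of 6 and 12 dpa.

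Most of the strongest changes have no name in the annotation used here. Probe set Ghi.6587.1.S1_s_at had 28780, 33070 and 30240 at 25 dpa, against 4.05, 1.22 and 3.10 at 6 dpa, and rose by 12.08 ± 0.36 (adjusted p = 1.54e-12). Most of this came at 12 against 9 dpa, by 7.71. Ghi.6165.2.S1_x_at had 17810, 19120 and 16900 at 25 dpa, against 8.25, 2.69 and 2.35 at 6 dpa, and rose by 11.05 ± 0.38. In the other direction, Ghi.4967.1.S1_s_at had 2.68, 2.42 and 6.15 at 25 dpa, against 5041, 5910 and 6582 at 6 dpa, and fell by 9.51. Ghi.5081.1.S1_s_at had 9.91, 6.67 and 0.423 at 25 dpa, against 5674, 6641 and 6883 at 6 dpa, and fell by 9.45.

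The tissue label was checked against marker genes. The summed signal of 7 fibre probe sets, among them E6, EXPA1 and LTP3, lay between 31600 and 54770 on all 15 arrays, with 37400 to 41480 at 25 dpa and 39600 to 43500 at 6 dpa. The sum hides members that moved, since at 25 against 6 dpa 1 of these 7 was called higher and 3 lower, with a median change of -0.856. The summed signal of 6 seed and embryo probe sets was 16170 to 17640 at 25 dpa and 3102 to 4064 at 6 dpa. Of the 5 tested, 3 were called higher and 2 lower. Lea5-D, a late embryogenesis abundant protein, rose by 2.61 ± 0.19, with 17240, 17370 and 15480 at 25 dpa, against 2337, 3173 and 2733 at 6 dpa. It made up most of the sum on both days, so the rise of the sum is largely that of Lea5-D and not of the group. The storage protein LegA, with at most 69.1 on any array, did not reach the limit for testing. Markers of the seed coat and ovule summed to 21.49 to 37.31 at 25 dpa and 71.57 to 138.9 at 6 dpa over 3 probe sets, and 2 histone probe sets summed to 11530 to 12140 at 25 dpa and 7724 to 9327 at 6 dpa. Whether seed RNA has a part in the rise of LEGB and Lea5-D was not tested.

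The course was then set against that of JKC 725, since for each JKC 703 array the nearest group of another genotype, by mean correlation, was one of JKC 725. The question was whether the changes between days differed, tested as the difference of the 2 changes over all 74 fibre arrays and 18052 probe sets. Few did. At 19 against 12 dpa 642 probe sets (3.56%) were called, with 306 changes higher and 336 lower in JKC 703. At 25 against 19 dpa 152 (0.842%) were called, 74 higher and 78 lower, and at 25 against 6 dpa 202 (1.12%), 136 higher and 66 lower. The higher share at 19 against 12 dpa was 47.7% on the deposited scale, 31.4% with quantile normalization and 24.4% with median centring. These counts rest on single arrays. Without replicate 3 of JKC 703 at 19 dpa 221 were called at 19 against 12 dpa, without replicate 2 of that day 1080, without replicate 3 of JKC 703 at 12 dpa 409, and without replicate 1 of JKC 725 at 19 dpa 394.

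Of the 15 differences named for this pair of genotypes, 4 kept their call in every alternative and 11 lost it in at least 1. The kept ones were GID1-4, CCR1 and KCS38 at 19 against 12 dpa and MatP7 at 25 against 19 dpa. GID1-4 had 104, 46.5 and 122 at 19 dpa, against 67.3, 42.4 and 66.5 at 12 dpa in JKC 703, which overlapped. In JKC 725 it had 30.1, 28.7 and 22.5 at 19 dpa, against 114, 149 and 117 at 12 dpa, all lower at the later day. The difference of the changes was 2.58 ± 0.34 (adjusted p = 4.62e-06).

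CCR1 had 946.5, 945.5 and 262 at 19 dpa, against 3451, 3664 and 4362 at 12 dpa in JKC 703, and 2197, 1443 and 2008 at 19 dpa, against 2590, 2514 and 2295 at 12 dpa in JKC 725. Its fall was larger in JKC 703, by a difference of -2.21 ± 0.35 (adjusted p = 7.22e-05). KCS38 on its first probe set had 108, 169 and 77.4 at 19 dpa in JKC 703 and 814, 263 and 367 in JKC 725. Its change differed by -1.88 ± 0.43. MatP7 had 26.05, 34.9 and 15.2 at 19 dpa in JKC 703 and 166, 348 and 113 in JKC 725, while at 25 dpa it had 228, 214 and 585 in JKC 703 and 287, 337 and 149.5 in JKC 725. Its rise thus came a sampled day later in JKC 703, with a difference of 3.07 ± 0.62 at 25 against 19 dpa (adjusted p = 0.00457).

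For CelA1, FLA7, CTL1, nst3 and Pel, no difference from JKC 725 was called. CelA1 on its first probe set averaged 6094 in JKC 703 and 1929 in JKC 725 at 12 dpa, and 12278 in JKC 703 and 12988 in JKC 725 at 19 dpa. The difference in its change at that step was -2.01 ± 0.66 (adjusted p = 0.05), just outside the threshold. The differences at 25 against 6 dpa were 0.75 ± 1.08 for FLA7, -1.003 ± 0.64 for CTL1, 0.73 ± 0.55 for nst3 and -1.28 ± 0.59 for Pel, with adjusted p-values between 0.313 and 0.82. Differences of 1 or more on the log2 scale lie within 2 of these errors, so a missed threshold does not show that the courses were alike.

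Against the mean of JKC 783 and JKC 737, which share its class, JKC 703 differed far more often. At 19 against 12 dpa 5175 probe sets (28.7%) were called, with 3245 changes higher and 1930 lower in JKC 703, at 25 against 19 dpa 1698 (9.41%), 788 higher and 910 lower, and at 25 against 6 dpa 7027 (38.9%), 4231 higher and 2796 lower. The higher share was 62.7% at 19 against 12 dpa on the deposited scale, 49% with quantile normalization and 47% with median centring, and 60.2%, 51.5% and 46.7% at 25 against 6 dpa. Of the 30 differences named here, 28 kept their call in every alternative. The others, both at 25 against 19 dpa, were NAC2, which lost it without replicate 2 of JKC 703 at 19 dpa or replicate 2 of JKC 783 at 25 dpa, and myb109, which lost it with no offset (1.73, adjusted p = 0.224).

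CelA1 on its first probe set was bright in JKC 703 from 12 dpa on, with day means of 57.5, 129, 6094, 12278 and 14129 from 6 to 25 dpa. In JKC 783 the means were 38.6, 37.6, 62.8, 536 and 4955, and in JKC 737 they were 30.2, 36.2, 47.6, 114 and 18309. On this probe set JKC 737 was thus bright at 25 dpa alone, and the change at 25 against 19 dpa differed by -4.96 ± 0.58 (adjusted p = 6.59e-09). The second CelA1 probe set ran in opposite ways. On it JKC 783 and JKC 737 were bright at 12 dpa already, with 2405, 3615 and 5738 in JKC 783 and 3331, 2621 and 4033 in JKC 737. At 19 dpa they had 8530, 7341 and 7775 in JKC 783 and 9342, 8852 and 8812 in JKC 737. On the same probe set JKC 703 had 419, 410.5 and 257 at 25 dpa, against 2604, 3568 and 4154 at 6 dpa. JKC 783 had 1801 and 7306 at 25 dpa, against 6.65, 27.1 and 33.7 at 6 dpa, and JKC 737 had 14020, 11880 and 10260, against 9.02, 10.02 and 22.1. The difference of the changes was -11.59 ± 0.86 (adjusted p = 6.26e-17). The 6 dpa signals of JKC 783 and JKC 737 all lay below the 40.4 limit, so the size of this difference depends on dim values.

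GLU had 11330, 10940 and 10500 at 19 dpa, against 352, 487 and 208.5 at 12 dpa in JKC 703. It had 114, 22.1 and 389 at 19 dpa, against 480, 250.0 and 214 at 12 dpa in JKC 783, and 153, 81.2 and 79.96 at 19 dpa, against 210, 339 and 262 at 12 dpa in JKC 737. The difference was 6.46 ± 0.81 (adjusted p = 3.57e-09). GLU was as bright in JKC 725, with a mean of 13543 at 19 dpa, and it reached 4093, 10110 and 8861 at 25 dpa in JKC 737. FLA7 and FLA15 differed the same way at this step, by 4.90 ± 0.93 and 4.44 ± 0.37. FLA6 differed by -6.13 ± 0.73, since it was already bright at 12 dpa in JKC 703, with a mean of 11281, where the mean was 219 in JKC 783 and 10.03 in JKC 737.

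KCS38 on its first probe set and KCS12 were low at 25 dpa in JKC 703 and bright in JKC 783 and JKC 737. Pel, EXPA3D and EXPA4 were lower at 25 than at 19 dpa in JKC 783 and JKC 737. In JKC 703 Pel and EXPA4 were lower as well, while EXPA3D was higher on its first probe set. KCS38 had 46.2, 70.8 and 63.7 at 25 dpa in JKC 703, 7829 and 11560 in JKC 783 and 10300, 6762 and 6514 in JKC 737. Its change at 25 against 6 dpa differed by -7.52 ± 0.38. KCS12 averaged 177 at 25 dpa in JKC 703, 9514 in JKC 783 and 8763 in JKC 737. Its change differed by -6.26 ± 0.44. Pel averaged 39.0 at 19 dpa in JKC 703, 4751 in JKC 783 and 6108 in JKC 737. At 25 dpa it averaged 14.5 in JKC 703, 760 in JKC 783 and 787 in JKC 737. The change of Pel at 25 against 6 dpa differed by -5.80 ± 0.52. EXPA3D had 33.8, 48.9 and 51.1 at 19 dpa in JKC 703, 5302, 5029 and 4074 in JKC 783 and 3330, 3024 and 4287 in JKC 737, and its change at 19 against 12 dpa differed by -8.08 ± 0.44. At 25 dpa EXPA3D had 94.3, 120 and 130 in JKC 703, 1444 and 1294 in JKC 783 and 428, 236.5 and 422 in JKC 737. EXPA4 had 2.12, 10.15 and 16.2 at 25 dpa, against 35.6, 67.2 and 24.4 at 19 dpa in JKC 703. In JKC 783 it had 778.5 and 466 at 25 dpa, against 1509, 1725 and 1459 at 19 dpa, and in JKC 737 37.8, 84.1 and 106, against 701, 1391 and 1330. JKC 737 was thus close to the limit for EXPA4 at 25 dpa.

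Aux6 had 24.9, 53.7 and 44.5 at 25 dpa, against 694, 651 and 833 at 6 dpa in JKC 703. In JKC 783 it had 5120 and 4558 at 25 dpa, against 89.5, 61.55 and 106 at 6 dpa, and in JKC 737 1715, 1481 and 1792, against 56.5, 68.1 and 52.6. The difference was -9.31 ± 0.34 (adjusted p = 2.64e-29). The opposite direction held for WRKY71, which had 338, 464 and 60.8 at 25 dpa, against 0.878, 15.9 and 11.4 at 6 dpa in JKC 703. In JKC 783 it had 47.9 and 28.9 at 25 dpa, against 338, 397 and 90.8 at 6 dpa, and in JKC 737 28.9, 37.65 and 1.27, against 1080, 328 and 218. Its change differed by 7.67 ± 1.28. JKC 725 went the same way as JKC 703 for both genes. Aux6 had 138, 89.9 and 54.7 at 25 dpa in JKC 725, against 975, 976 and 1505 at 6 dpa. WRKY71 had 131, 87.75 and 96.2 at 25 dpa in JKC 725, against 19.0, 5.81 and 2.07 at 6 dpa.

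**Figure D5:**
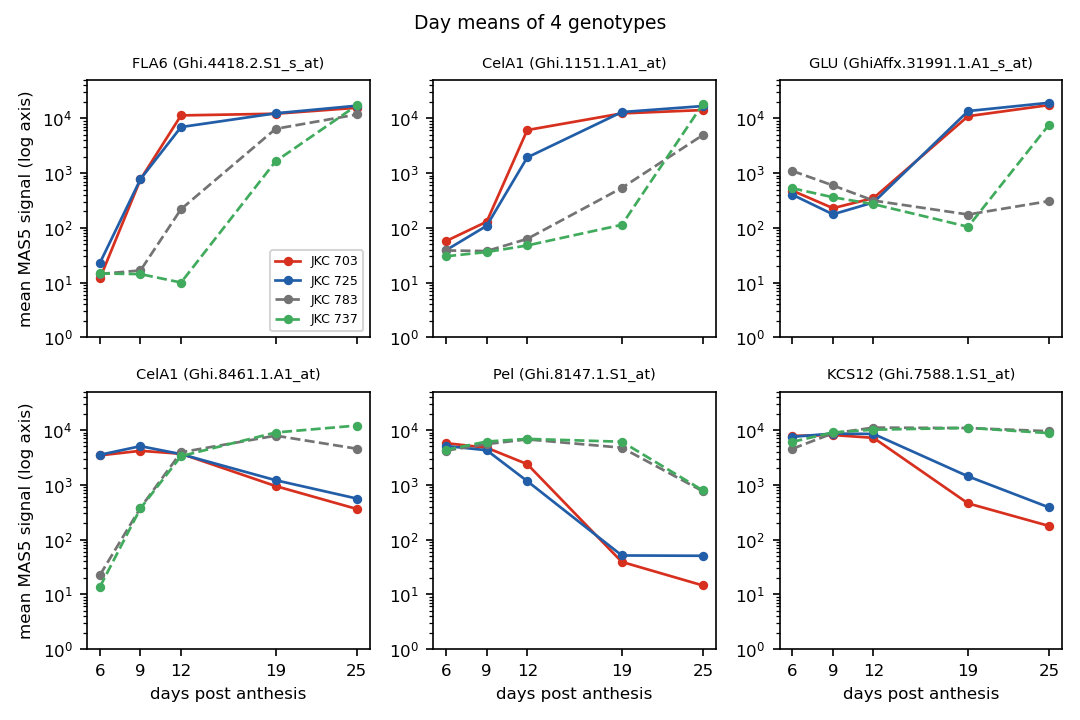
Day means of the MAS5 signal on a log axis from 6 to 25 dpa for FLA6, CelA1 on its 2 probe sets, GLU, Pel and KCS12, with 1 line for each of JKC 703, JKC 725, JKC 783 and JKC 737. The lines of JKC 703 and JKC 725 run close together, and those of JKC 783 and JKC 737 rise or fall at later days or not at all within the 25 days, except on the second CelA1 probe set, where they climb by 12 dpa while the line of JKC 703 ends lower than it began.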

How the data were processed

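RNA of JKC 703 fibre was measured on 15 Affymetrix Cotton Genome arrays. The values deposited by the authors are intensity values, 1 MAS5 signal per probe set and array; MAS5 is named per the submitters' processing notes, with no version. Over all 89 arrays of the series, the mean signal of an array, with 2% trimmed at each end, is 500.091 to 500.188. The arrays were thus scaled to 1 level, and no further scaling was applied. How probe pairs were combined can change dim signals most. The number of arrays limits the precision.

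The 103 control probe sets were left out. With R 4.3.3 and limma 3.58.1, log2(signal + 4.38) was fitted by day with lmFit and eBayes with an intensity trend, where 4.38 is the 10th percentile of the signals and the tested limit of 40.4 the 40th. P-values were adjusted by the Benjamini-Hochberg method over all tested probe sets. Genotype differences used 1 fit over the 25 fibre groups of 74 arrays. The test was tried on simulated data. Named were, among called probe sets of 1 named gene whose arrays did not overlap, the 10 largest rises and falls of a step (20 at 19 against 12 and 25 against 6 dpa), the member of each list with the largest called change and that with the highest mean signal (a choice that ranks different probe sets), the 5 largest genotype differences each way and 2 unnamed probe sets each way. Other members of the lists were named after their values were seen. Names come from the platform annotation and RefSeq assembly Gossypium_hirsutum_v2.1: of 743 annotated probe sets 697 had 1 gene, 46 had several and 324, of 246 genes, a readable name. The members and the gene lists were chosen with earlier results of these data known.

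Replicate numbers were checked for pairing between days. Over 30 same-numbered pairs the correlation of deviations from the day means ran from -0.306 to 0.305, and 6 were over 0.1. No pairing by number was seen, but this cannot exclude that same-numbered samples had a shared origin. Alternatives were other offsets, filters, scalings and spread estimates, a replicate block, and leaving out each array.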

Additional observations from a re-analysis of the deposited data

Results flagged for a closer look

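The 45 results below are changes between days that differed between JKC 703 and other genotypes by limma's test of the difference itself. They are given as the change in JKC 703 minus that in the other genotype on the log2 scale. Those of KCS38 are on its first probe set.

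Against JKC 725 at 19 against 12 dpa, the change was higher in JKC 703 by 3.708 for GEPH, 2.966 for the cyclopropane fatty acid synthase CPA-FAS-1, 2.575 for the gibberellin receptor GID1-4, 1.773 for the late embryogenesis abundant Lea14-A and 1.704 for Aux2. It differed by -2.351 for MatP7, -2.206 for the cinnamoyl-CoA reductase CCR1, -2.008 for Ssh2, -1.882 for KCS38 and -1.748 for FLA19. Replicate 3 of JKC 703 at 19 dpa bears on several of these, since without it the adjusted p was 0.132 for GEPH, 0.165 for CPA-FAS-1, 0.125 for Lea14-A, 0.112 for Aux2, 0.0749 for MatP7, 0.093 for Ssh2 and 0.194 for FLA19. For GEPH the arrays at 19 dpa were 427, 25.0 and 519 in JKC 703 and 44.9, 102 and 33.5 in JKC 725. At 25 against 19 dpa the differences were 3.067 for MatP7, 2.052 for Ssh2, 2.038 for bnlghi6863 and 2.014 for EXPA3D on its first probe set. At 25 against 6 dpa the difference was 1.651 for GAE2. Without replicate 3 of JKC 703 at 19 dpa the adjusted p of Ssh2 at 25 against 19 dpa was 0.175. The call of Ssh2 was lost in 5 alternatives in all, that of EXPA3D in 7, with an adjusted p of up to 0.193, and those of bnlghi6863 and GAE2 in 3 each.

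Against the mean of JKC 783 and JKC 737 at 19 against 12 dpa, the change was higher in JKC 703 by 6.459 for GLU, 4.897 for FLA7, 4.437 for FLA15, 3.849 for CPA-FAS-1 and 3.632 for pod10. It differed by -8.084 for EXPA3D, -6.272 for KCS38, -6.135 for FLA6, -6.061 for Aux6 and -5.503 for EXPA4. At 25 against 19 dpa the differences were 3.845 for EXPA3D on its first probe set, 3.695 for TPS1, 3.667 for MatP7, 3.494 for NAC2 and 2.896 for myb109 in 1 direction. In the other they were -4.957 for CelA1 on its first probe set, -4.947 for CCoAMOT2, -3.555 for CTL1, -3.511 for Rac9 and -3.36 for PAP10. For CTL1 the mean joins unlike courses. In JKC 783 it had 436 and 1371 at 25 dpa, against 476, 63.0 and 243.5 at 19 dpa. In JKC 737 it had 11410, 12770 and 12700, against 137.5, 141 and 173. JKC 703 was already at 11070, 11970 and 12910 at 19 dpa. The call of NAC2 at this step was lost in 2 alternatives and that of myb109 in 1. In JKC 703 myb109 had 0.627, 1.67 and 0.742 at 25 dpa, against 4.19, 10.6 and 2.06 at 19 dpa, all far below the 40.4 limit, so its difference rests on the change in the other genotypes. MatP7 stayed dim in both other genotypes, with 4.999 and 19.9 at 25 dpa in JKC 783 and 37.7, 24.8 and 25.6 in JKC 737, where JKC 703 had 228, 214 and 585. At 25 against 6 dpa the differences were 7.667 for WRKY71, 6.238 for CPA-FAS-2, 4.882 for NAC2, 4.453 for NAC4 and 4.387 for CBP3. In the other direction they were -11.59 for CelA1 and -7.557 for EXPA3D, each on its second probe set, -9.306 for Aux6, -7.515 for KCS38 and -6.722 for pox. CPA-FAS-2 was lower at 25 than at 6 dpa in JKC 703, JKC 783 and JKC 737. All its 25 dpa signals there lay below the 40.4 limit, so the size of its difference depends on dim values.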

How the results depend on the processing

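Settings that scaled the arrays again changed the split of calls, as given with the counts. With 32 added to the signals, 649 probe sets were called at 25 against 19 dpa in place of 1008. Leaving out 1 JKC 703 array gave 440 to 548 calls at 9 against 6 dpa, 1381 to 1707 at 12 against 9 dpa, 4189 to 5859 at 19 against 12 dpa, 730 to 1269 at 25 against 19 dpa, 6759 to 7276 at 25 against 6 dpa and 9383 to 10053 for any difference among days. For the differences from JKC 725, leaving out 1 array of either genotype gave 221 to 1080 at 19 against 12 dpa, 76 to 341 at 25 against 19 dpa and 128 to 228 at 25 against 6 dpa. At 25 against 19 dpa, of 152, the counts were 249, 230 and 95 without JKC 703 replicate 1, 2 or 3 of 19 dpa, 92 and 87 without its replicate 1 or 2 of 25 dpa, 90 and 97 without JKC 725 replicate 1 or 3 of 19 dpa, and 341 and 76 without JKC 725 replicate 1 or 3 of 25 dpa. At 25 against 6 dpa, of 202, they were 130 without JKC 703 replicate 2 of 6 dpa and 128 without its replicate 1 of 25 dpa. For the differences from JKC 783 and JKC 737 the ranges were 4016 to 5552, 1380 to 1884 and 6667 to 7151. Leaving out arrays of the other genotypes was chosen after seeing the data, and where it left JKC 783 with 1 array at 25 dpa, that array is assumed to vary like the other groups. With the replicate number as a replicate block, 547, 1721, 5266, 982 and 7093 were called in the 5 comparisons of days and 9767 for any difference, 668, 150 and 212 in the differences from JKC 725 and 5193, 1739 and 7076 in those from JKC 783 and JKC 737. Among the named probe sets and differences the block ended the call of AOX1 at 12 against 9 dpa and no other. Quantile normalization turned the direction at 25 against 6 dpa of 4 probe sets that were not called, to -0.4719 for ACT1, -0.1034 for LTP3, -0.1333 for MADS-1 and -0.02979 for VATE, and the cause was not tested. Of 147 results on named probe sets within JKC 703, 22 lost their call or, as these 4 did, turned direction in at least 1 alternative. Of 45 named differences 13 lost their call. The few arrays per day and the dim signals under 40.4 limit what can be told for weakly expressed genes.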
